A study of Mus musculus with 6 samples.

Results

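The gene set described here holds 100 genes of MEL cells whose mRNA level at day 2 of DMSO treatment lay close to that at day 0 and was higher at day 4. They were taken from 24164 genes, each represented by the transcript with its highest mean count. Counts were scaled to CPM, the usual library-scaled count per 1e+06 transcript counts. A gene met the conditions when its log2(mean CPM + 1) at day 2 was within 0.25 of that at day 0 and both day 4 libraries lay above the 4 others. Of the 1023 genes that met them, the members are the 100 with the largest day 4 minus day 2 on that scale. All 100 members passed the filter on low counts, which 12489 genes passed in all. The members were thus selected on the CPM of all 6 libraries and on all 3 comparisons between days, so levels and fold changes of the members are a description and carry no test. In what follows, the early step is day 2 relative to day 0, the late step day 4 relative to day 2, and the whole course day 4 relative to day 0, and a log2 fold change given without a step is that of the late step. A late difference is day 4 minus day 2 of log2(mean CPM + 1).

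MEL cells are an erythroleukemia line of the mouse, transformed by a virus and grown in suspension, which can be driven along the red cell path by DMSO. Cultures in log phase received 2% DMSO and were collected after 0, 2 or 4 days, with 2 replicate cultures for each day, and poly(A) RNA was sequenced in strand-specific libraries. All 6 libraries share the line and its medium, and day 0 stands for cells on which the agent had not yet acted. No library of cells kept to day 2 or day 4 without DMSO is among them, so the treatment and the time in culture cannot be told apart, and a transformed line is a limited model of a red cell precursor. The depth on transcripts was 43415610 and 53899476 counts in the day 0 libraries (replicates 1 and 2, here and in all later pairs of values), 39258359 and 45896399 at day 2, and 35294930 and 45621291 at day 4.

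Red cell precursors that mature take up iron through the transferrin receptor for heme and globin, store the excess in ferritin, and rebuild their membrane on a spectrin skeleton. In the same days they slow their divisions, condense the nucleus, and clear ribosomes and organelles through ubiquitin, the proteasome and lysosomes. MEL cells go through much of this program before they lose the ability to divide, and they keep their nucleus for longer than precursors in the marrow.

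Erythroid identity was read from a list of 16 marker genes, 15 of them found in the counts and none at 0. Their summed level was 2118 and 2166 CPM at day 0, 6491 and 7625 CPM at day 2, and 21039.8 and 22969 CPM at day 4. Hba-a1, an alpha globin gene and the most abundant of them, stood at 120.1 and 113 CPM at day 0, 2399 and 2964 CPM at day 2, and 10015 and 11369 CPM at day 4. Globin transcripts took 0.0426% and 0.0340% of the counts at day 0, 0.794% and 0.987% at day 2, and 3.84% and 4.12% at day 4. One member, Tfrc, is on that list. In bulk RNA such as this, fewer cells of a type and less RNA per cell cannot be told apart.

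Of the 100 members, 80 are coding genes, 6 small nucleolar RNAs (snoRNAs), 5 microRNA hairpins and 9 other noncoding RNAs. The median member had a mean of 9.80 CPM at day 0, 10.0 CPM at day 2 and 19.7 CPM at day 4. Mean levels at day 4 ran from 0.648 to 926 CPM, with 15 members at 100 CPM or more, 47 from 10 to under 100, 35 from 1 to under 10 and 3 under 1. On the log2(mean CPM + 1) scale, day 4 minus day 2 ran from 1.72 down to 0.51 with a median of 0.66, where the median over all tested genes was -0.07. Day 2 minus day 0 had a median of 0.10 among members, with 74 above and 26 below 0, and of 0.16 over all tested genes. As a plain ratio of mean CPM, day 4 over day 2 had a median of 1.72 and reached 2 or more in 25 members.

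**Figure D1:**
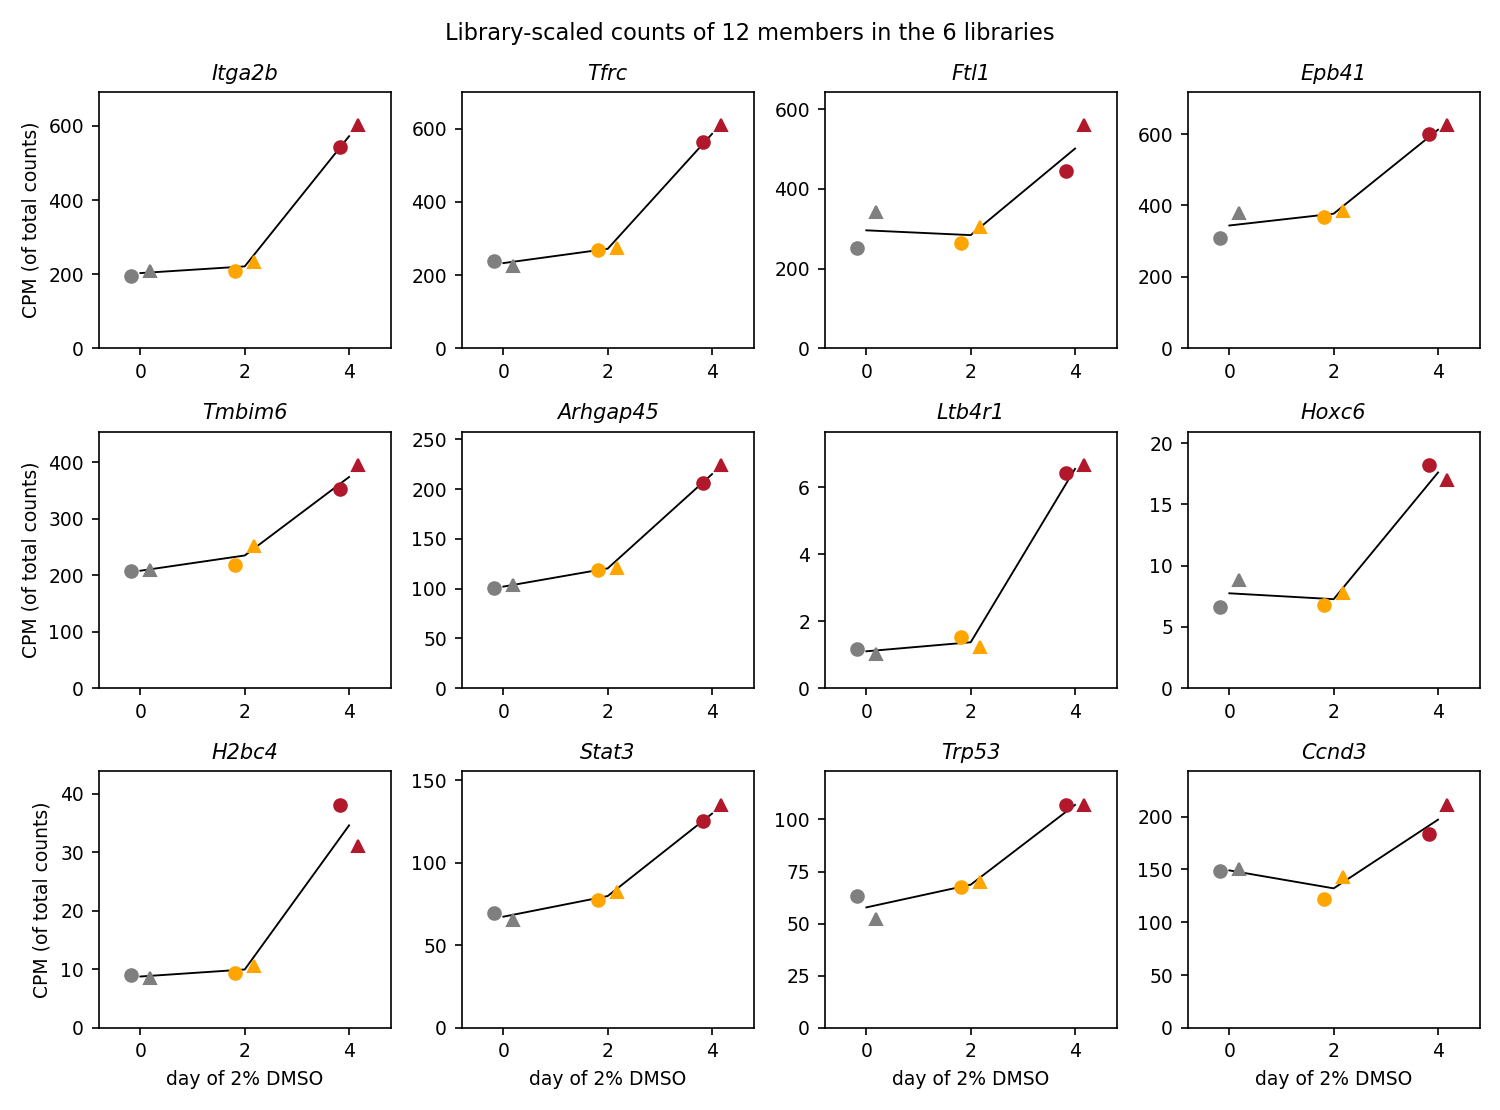
CPM (vertical, linear from 0) of 12 members at days 0, 2 and 4, with replicate 1 as circles, replicate 2 as triangles and a line through the mean of each day. Day 4 values lie above all earlier values of the same gene, as the choice of members required.

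**Figure D2:**
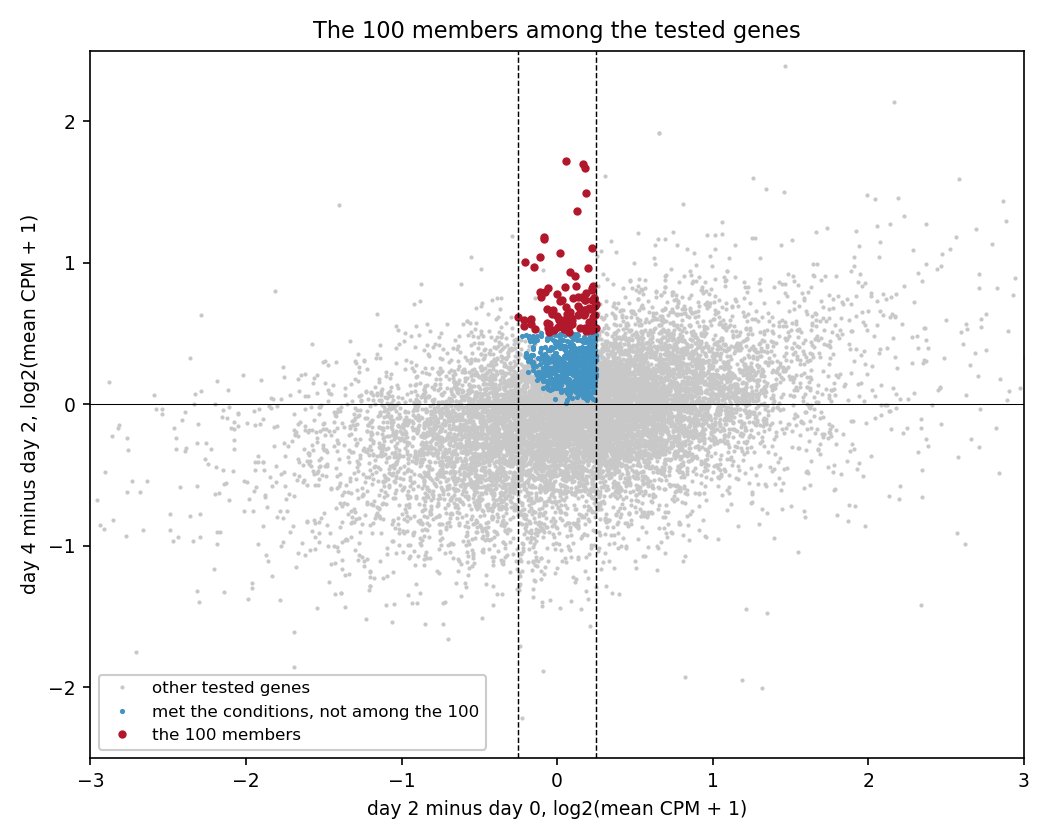
Day 2 minus day 0 (horizontal) and day 4 minus day 2 (vertical) of log2(mean CPM + 1) for tested genes, with the 100 members marked. Members fill the upper part of the band within 0.25 of 0, and 57 genes, none of them a member, lie outside the axes.

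How far the day 4 libraries stood above the rest differed widely among members. The lower day 4 library over the highest of the 4 earlier ones gave a ratio with a median of 1.45. It reached 1.5 or more in 48 members. The day 4 libraries lay within 1.3-fold of each other in 82 members and over 1.5-fold apart in 12, among them 4 of the 6 snoRNAs. The plot of early against late differences shows the members as one edge of a continuous cloud of genes, and the heat map shows the replicates side by side for the 25 members with the largest late differences.

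**Figure D3:**
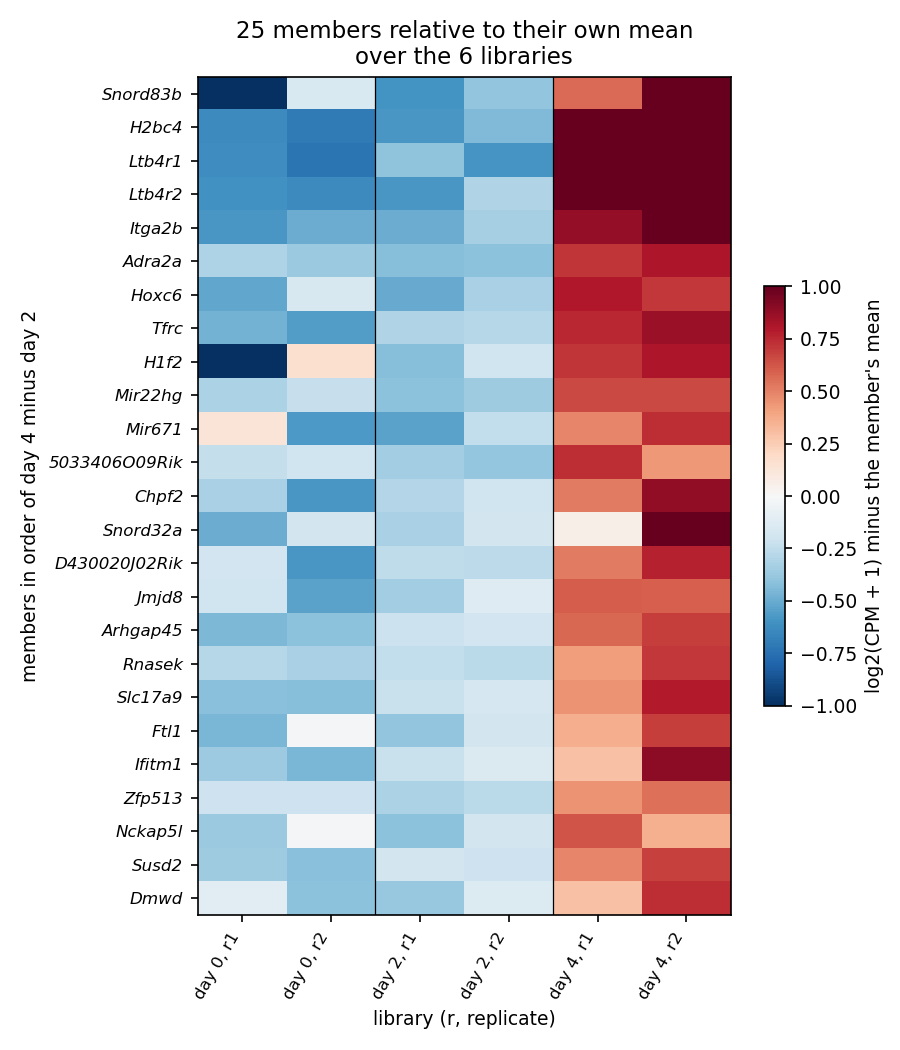
Log2(CPM + 1) of the 25 members with the largest day 4 minus day 2, each minus its own mean over the 6 libraries (color, saturated beyond 1 in size), members in order of day 4 minus day 2. The day 4 columns are the highest in each line, and replicates of a day lie apart in several lines, such as H1f2 at day 0 and Snord83b, Snord32a and Ifitm1 at day 4.

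Choosing 100 genes by the same rule from the libraries of 1 replicate number left those of the other number to be read. These had no part in the choice, except that the transcript for each gene was set by the counts of all 6 libraries. Of 100 genes chosen in replicate 1, 98 had a positive day 4 minus day 2 in replicate 2, with a median of 0.55 (0.70 where they were chosen), and 48 were within 0.25 of 0 for day 2 minus day 0. Over all tested genes in replicate 2, 39.2% had a positive day 4 minus day 2 and 27.7% were within 0.25 of 0 for the earlier step. Of 100 chosen in replicate 2, 94 were positive in replicate 1, with a median of 0.48 (0.62 where chosen), and 55 were within the limit, beside 44.5% and 30.2% of all tested genes. So the later difference kept its sign in nearly all genes of either choice. The flat earlier step was met in the libraries of the other number by 48 and 55 of 100. With 1 library a day left to read, neither reading has a test. The 2 choices shared 53 and 54 genes with the members.

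In the edgeR fit over all tested transcripts, at an adjusted p below 0.05, 100 members were called higher and 0 lower in the late step (100 and 0 at an unadjusted p below 0.05, and 95 and 0 with DESeq2), in a comparison where 14.1% of all tested genes were called higher and 16.2% lower. Over the whole course, 96 members were called higher and 0 lower (97 and 0 at an unadjusted p, and 90 and 0 with DESeq2), beside 35.6% and 36.3% of all tested genes. In the early step, 1 member (Ptprh) was called higher and 5 lower, beside 31.1% and 31.4%. These comparisons chose the members, and nothing is read from the counts. The shares of all tested genes given here also stand beside the counts of gene lists in later paragraphs. Those counts include the members on each list, whose late-step sign was fixed by the choice of members. Leaving out 1 library of day 2 or day 4 lowered the late-step calls over all tested genes as well as those of members. Fewer members were called in the late step when 1 library of day 2 or day 4 was left out, and fewest without day 2 replicate 1. Members named below lost calls this way as well, and such losses are given for only some of them. Leaving out a library of day 0, which this step does not compare, lowered neither the calls over all tested genes nor those of members. In the early step, 18 were called without day 0 replicate 1, 11 without day 0 replicate 2 and 1 without day 2 replicate 1. The median log2 fold change of members was -0.06 in the early step, 0.87 in the late step and 0.77 over the whole course. With total counts, the scaling of the rule, in place of edgeR's factors, these medians were 0.14, 0.79 and 0.88, and those of all tested genes 0.21, -0.09 and 0.10.

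Among the members called lower at day 2 than at day 0, Vps51, Wsb2, Ccnd3 and Gramd1a had values that dipped within the limits of the rule before day 4. All lower calls of members in that step were lost with total counts, the scaling of the rule, and without day 2 replicate 1. Wsb2, which like Vps51 and Gramd1a was chosen for mention after its values were seen, had 31.3 and 31.7 CPM at day 0, 25.5 and 28.6 CPM at day 2, and 40.5 and 42.4 CPM at day 4. Ccnd3, Gramd1a and Mvp (the last also chosen after its values were seen) were among the 4 members not called over the whole course. In these 3 the mean CPM at day 4 lay closer to that of day 0 than to that of day 2.

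Iron uptake and storage gave 2 members, Tfrc and Ftl1. Tfrc (NM_011638, chromosome 16 from 32608896 to 32632794 of GRCm38) encodes transferrin receptor 1, which brings iron-loaded transferrin into the cell. It had 240.0 and 226 CPM at day 0, 270.1 and 274 CPM at day 2, and 563 and 609 CPM at day 4. Each day 4 library stood 2.06-fold or more above any earlier library, with a late-step log2 fold change of 1.19 ± 0.12 (standard error, here and below) and an early-step one of 0.03 ± 0.11. Ftl1 (NM_010240, chromosome 7 from 45457944 to 45459886), the light chain of the ferritin shell that stores iron, had 251 and 341 CPM at day 0, 263 and 304 CPM at day 2, and 444 and 559 CPM at day 4. Its day 0 libraries lay further apart than the day 0 and day 2 means, and both day 4 libraries were above all others (late-step log2 fold change 0.91 ± 0.18). Per kilobase of transcript, Ftl1 stood at 306, 293 and 518 CPM and Tfrc at 47.6, 55.6 and 119.8 CPM at days 0, 2 and 4, so ferritin light chain was the more abundant message on each day.

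Both messages carry iron-responsive elements, hairpins to which iron regulatory proteins bind, and their sequences are shown because this is a regulatory feature of the message that the choice of members did not use. A search of GENCODE transcripts for a C, 5 bases, the letters CAGTGN and 5 bases that can pair with the first 5 (G with T allowed), on the strand of the transcript, found a match in 3 of 96 members with a transcript model (3.12%; E4f1, Ftl1 and Tfrc) and in 173 of 12228 tested genes (1.41%). Tfrc was the only tested gene with 3 or more. Its 4 matches lie in the 3′ untranslated region, on the plus strand of GRCm38 at chr16:32631220-32631246, chr16:32631599-32631625, chr16:32631664-32631690 and chr16:32631711-32631737. The match in Ftl1 lies in the 5′ untranslated region, on the minus strand at chr7:45459780-45459806. Capitals mark the unpaired C and the 6 bases of the loop (GENCODE M21, GRCm38).
Tfrc element 1: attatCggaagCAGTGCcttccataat
Tfrc element 2: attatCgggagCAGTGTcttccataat
Tfrc element 3: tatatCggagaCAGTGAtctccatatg
Tfrc element 4: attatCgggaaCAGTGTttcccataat
Ftl1 element: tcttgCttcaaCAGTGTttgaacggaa
The matches describe letters and pairing alone, and binding was not measured here.

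Of the 22 genes listed for iron uptake and storage, 16 were tested, and 6 were called higher and 2 lower in the late step. Tfrc and Ftl1, whose late-step sign was fixed by the choice of members, are among those called higher. Outside the members, Slc25a37, the mitochondrial iron importer mitoferrin 1, rose most, from 120.3 and 140.1 CPM at day 2 to 277 and 202 CPM at day 4 (log2 fold change 0.96 ± 0.14), having already been higher at day 2 than at day 0 (37.8 and 41.0 CPM). Steap3, which reduces iron in endosomes, fell by 0.44 on the log2 scale, and its call was lost without day 2 replicate 1 (-0.47), day 2 replicate 2 (-0.41) or day 4 replicate 1 (-0.33). In the step from day 0 to day 2, mitoferrin 1 had a log2 fold change of 1.53 ± 0.15 where Tfrc and Ftl1 had 0.03 ± 0.11 and -0.26 ± 0.17, and the difference between these steps was not tested.

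At the cell surface, the member with the largest late difference among abundant genes was Itga2b (NM_010575, chromosome 11 from 102453297 to 102469883), the integrin alpha IIb chain that pairs with beta 3 as the fibrinogen receptor of platelets. Itga2b had 196 and 209 CPM at day 0, 208 and 234 CPM at day 2, and 543 and 601 CPM at day 4. The earlier libraries spanned a narrow range, and both day 4 libraries stood at least 2.32-fold above its top (late-step log2 fold change 1.46 ± 0.13). Itga2b is the most abundant gene of the 16 megakaryocyte and platelet markers, whose summed level was 279 and 283 CPM at day 0, 248 and 277 CPM at day 2, and 580.3 and 635 CPM at day 4. Of these markers, Clec1b and Thbs1 were at 0 in all 6 libraries and 7 were under 1 CPM in all 6. Of the others with a mean of 2 CPM or more on some day, named after their values were seen, Pf4 went from a mean of 46.6 CPM at day 0 to 9.64 CPM at day 4, Gp5 from 20.1 to 2.22 CPM, Gp1bb from 4.05 to 2.65 CPM and Itgb3, which encodes the beta 3 chain, from 2.68 to 0.498 CPM, while Vwf went from 0.933 to 13.5 CPM, Gp1ba from 0.744 to 4.54 CPM and Gp9 from 1.21 to 2.05 CPM. Itga2b alone made up 543 of 580.3 CPM and 601 of 635 CPM of the list at day 4, and the part of other cells in its level was not tested. Among 47 tested integrin, adhesion and matrix genes, 8 were called higher and 11 lower in the late step. Of all tested genes, 14.1% were called higher and 16.2% lower.

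Epb41 (NM_183428, chromosome 4 from 131923413 to 132075346) encodes protein 4.1R, which ties spectrin and actin to the red cell membrane. It had 599 and 624 CPM at day 4, after 310.1 and 378 CPM at day 0 and 369 and 385 CPM at day 2. The day 4 replicates lay close together and 1.55-fold or more above every earlier library (late-step log2 fold change 0.78 ± 0.13). Of 32 tested genes of the red cell membrane and skeleton, 21 were called higher and 8 lower in the early step, and 12 higher and 3 lower in the late step. Epb41 was the one member among them, with a first step of -0.07 ± 0.13.

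In ubiquitin conjugation, Ube2o, a large ubiquitin-conjugating enzyme that acts on ribosomal proteins in reticulocytes, had 57.0 and 57.1 CPM in the day 0 libraries, 59.6 and 66.1 CPM in those of day 2 and 100.4 and 95.5 CPM in those of day 4 (log2 fold change 0.72 ± 0.10). Of 46 tested ubiquitin enzymes of red cell maturation, 15 were called higher and 2 lower in the late step. The largest rise outside the members was that of Ranbp10, a scaffold of the CTLH ubiquitin ligase, at 1.27 ± 0.12 on the log2 scale. The largest fall was that of Ube2c, which feeds the mitotic ubiquitin ligase, at -0.64 ± 0.16. The call of Ube2c was lost without day 2 replicate 1 (-0.67), day 2 replicate 2 (-0.63) or day 4 replicate 2 (-0.40), and without day 4 replicate 1 its value was -0.94.

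For lysosomes and other acidic vesicles, Atp6v0a2, a membrane subunit of the proton pump that acidifies vesicles, had 74.6 and 65.9 CPM in the day 0 libraries, 76.3 and 87.9 CPM in those of day 2 and 116 and 121 CPM in those of day 4. Of 40 tested lysosome and vesicle acidification genes, 7 were called higher and 6 lower in the late step. Atp6v0a1, which encodes another form of the same pump subunit, rose most outside the members (1.05 ± 0.13 on the log2 scale). Lipa, the lysosomal acid lipase, fell most (-0.83 ± 0.15), and its call was lost without day 2 replicate 1 (-0.74).

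Ltb4r1 and Ltb4r2, receptors for the lipid mediator leukotriene B4, lie 1895 bases apart on chromosome 14. Ltb4r1 had 1.17 and 1.02 CPM at day 0, 1.53 and 1.22 CPM at day 2, and 6.43 and 6.66 CPM at day 4 (log2 fold change 2.34 ± 0.20). Ltb4r2 had 0.783 and 0.742 CPM at day 0, 0.815 and 1.20 CPM at day 2, and 4.59 and 4.71 CPM at day 4 (log2 fold change 2.28 ± 0.23). In both genes the day 4 replicates nearly coincided, 4.21-fold and 3.83-fold or more above every earlier library. Adra2a, the alpha 2A adrenergic receptor, had means of 4.41 ± 0.149 CPM at day 0, 4.11 ± 0.0454 CPM at day 2 and 10.6 ± 0.553 CPM at day 4 (SD, n = 2), so it too stood apart only at day 4 (log2 fold change 1.45 ± 0.15). Gnal, a G protein alpha subunit that stimulates adenylyl cyclase, was near 1.79 CPM at day 4 and 0.763 CPM at day 2. The list of G protein-coupled receptor signalling holds Adra2a and Gnal but not Ltb4r1 or Ltb4r2. Of its 66 tested genes, 12 were called higher and 17 lower in the late step, beside 14.1% and 16.2% of all tested genes. Rgs10, a regulator that shortens G protein signals, rose most outside the members (0.98 ± 0.13), and Gpr174, a receptor for lysophosphatidylserine, fell most, from 0.993 and 0.610 CPM to 0.0567 and 0.110 CPM (-3.07 ± 0.45).

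Hoxc6 and Hoxc9, which encode homeodomain transcription factors, lie 13781 bases apart in the Hoxc cluster on chromosome 15. Hoxc6 had 6.66 and 8.83 CPM at day 0, 6.75 and 7.78 CPM at day 2, and 18.2 and 17.0 CPM at day 4 (log2 fold change 1.36 ± 0.16). Hoxc9 had 8.34 and 7.55 CPM at day 0, 7.36 and 7.32 CPM at day 2, and 12.9 and 13.2 CPM at day 4 (log2 fold change 0.92 ± 0.14). Both were level over the first 4 libraries and higher in both day 4 libraries. Of 22 tested genes on a list of HOX factors and their PBX and MEIS partners, 6 were called higher and 0 lower in the late step by edgeR (11 and 2 at an unadjusted p below 0.05, and 7 and 0 with DESeq2). Hoxc6 and Hoxc9, whose late-step sign was fixed by the choice of members, are among the 6. The other tested Hoxc genes, named here after their values were seen, differed in the first step, where Hoxc5 and Hoxc8 were called higher (0.95 ± 0.19 and 1.33 ± 0.22) and Hoxc4 and Hoxc10 were not (0.04 ± 0.18 and 0.11 ± 0.16). In the late step their values were 0.41 ± 0.18 for Hoxc4, 0.49 ± 0.18 for Hoxc5, 0.91 ± 0.19 for Hoxc8, called but not without day 2 replicate 1 (0.94), day 2 replicate 2 (0.89) or day 4 replicate 2 (0.73), and 0.45 ± 0.16 for Hoxc10. Hoxb6 showed the largest rise of the list outside the members (1.13 ± 0.31) at a level of at most 1.61 CPM, after an early-step value of -1.34 ± 0.30, so that its mean of 1.32 CPM at day 4 was near the 1.38 CPM of day 0, and its late-step call was lost without day 2 replicate 1 (0.95), day 2 replicate 2 (1.36) or day 4 replicate 1 (0.95).

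Histone genes gave 2 members that lie 46326 bases apart on chromosome 13. H2bc4, a core histone H2B gene, had 9.03 and 8.52 CPM at day 0, 9.40 and 10.5 CPM at day 2, and 38.1 and 31.0 CPM at day 4 (log2 fold change 1.87 ± 0.14). On the scale of the rule its late difference was the second largest of all members, though others, such as Ltb4r1 and Ltb4r2, had larger log2 fold changes. H1f2, a linker histone H1 gene, had 5.23 and 13.5 CPM at day 0, 8.64 and 10.3 CPM at day 2, and 20.3 and 21.7 CPM at day 4. Its day 0 libraries differed more than those of most members, and only the day 4 libraries stood above 20 CPM (log2 fold change 1.23 ± 0.32, which DESeq2 did not call at 1.24 and whose call was lost without day 2 replicate 1, day 2 replicate 2 or day 4 replicate 2, with values from 1.11 to 1.36). Most other core histones did not share this course, since of 59 tested genes of that list 0 were called higher and 51 lower in the early step by edgeR (0 and 52 at an unadjusted p below 0.05, and 0 and 48 with DESeq2). In the late step, 8 were called higher and 36 lower, and of 14 tested linker and variant histones, the list of H1f2, 2 were called higher and 3 lower. A second transcript of H2bc4 with 39.5% of the counts of the first was called lower at day 2 than at day 0 (-0.67 ± 0.19) and higher at day 4 than at day 2 (1.76 ± 0.19). Poly(A) selection takes up few messages of replication-dependent histones, which usually end without a poly(A) tail, and the part of tail formation in these values was not tested.

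Trp53, the tumor suppressor p53, had 63.3 and 52.3 CPM at day 0, 67.4 and 69.9 CPM at day 2, and 107 and 107 CPM at day 4. The day 4 replicates were equal to 3 digits, and the late-step log2 fold change was 0.72 ± 0.11. Among 30 tested genes of the p53 target list, which holds Trp53 itself, 16 were called higher and 7 lower in the early step, and 5 higher and 0 lower in the late step by edgeR (6 and 1 at an unadjusted p below 0.05, and 5 and 0 with DESeq2). The list of CDK inhibitors and G1 arrest, which holds Ccnd3, had 6 of 26 tested genes called higher and 5 lower in the late step, and the list of RNA-binding proteins, which holds Rbm38, 9 of 43 higher and 6 lower. Ccnd3, the cyclin D3 gene, had 148 and 149.9 CPM at day 0, 122 and 143 CPM at day 2, and 183 and 211 CPM at day 4, a dip at day 2 followed by the highest values (first step -0.37 ± 0.12, second step 0.66 ± 0.12). Rbm38, an RNA-binding protein that p53 induces, had 76.6 and 80.5 CPM in the day 0 libraries, 69.2 and 82.1 CPM in those of day 2 and 111 and 114 CPM in those of day 4. E4f1, a ubiquitin ligase and transcription regulator, had 24.1 and 23.4 CPM in the day 0 libraries, 22.1 and 24.7 CPM in those of day 2 and 32.4 and 35.6 CPM in those of day 4.

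Stat3, a transcription factor of cytokine receptors, had 69.6 and 65.0 CPM at day 0, 77.5 and 82.1 CPM at day 2, and 125 and 135 CPM at day 4 (log2 fold change 0.78 ± 0.10). The 4 earlier libraries differed little, and day 4 lay 1.52-fold or more above them. Tnip1, which restrains NF-kappa B together with A20, had means of 22.9 ± 1.54, 27.4 ± 3.31 and 40.3 ± 2.31 CPM at days 0, 2 and 4 (SD, n = 2). H2-T23, a nonclassical class I molecule, had 5.53 and 5.66 CPM in the day 0 libraries, 5.94 and 6.12 CPM in those of day 2 and 9.97 and 9.54 CPM in those of day 4. Ifitm1, an interferon-induced membrane protein, had 3 and 0 counts in the day 0 libraries and reached 0.680 and 1.56 CPM at day 4, so its early course was at the limit of detection. Of 68 tested genes of the type I interferon list, 39 were called higher and 7 lower in the early step, and 10 higher and 5 lower in the late step. In the late step, MHC and antigen processing, the list of H2-T23, had 2 of 23 tested genes called higher and 5 lower, the NF-kappa B list of Tnip1 7 of 28 higher and 1 lower, and the JAK-STAT list of Stat3 9 of 24 higher and 0 lower by edgeR (9 and 0 at an unadjusted p below 0.05, and 9 and 0 with DESeq2).

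Insig1, which retains the sterol sensor SCAP in the endoplasmic reticulum, had 57.8 and 44.9 CPM at day 0, 58.4 and 58.0 CPM at day 2, and 82.5 and 101 CPM at day 4. Nr1h2, the sterol-activated nuclear receptor LXR beta, had 33.1 and 52.2 CPM at day 0, 45.9 and 53.7 CPM at day 2, and 70.4 and 79.1 CPM at day 4, with the day 0 libraries further apart than the day 0 and day 2 means. Lipe, hormone-sensitive lipase, had 15.8 and 12.9 CPM in the day 0 libraries, 16.7 and 17.3 CPM in those of day 2 and 22.4 and 27.8 CPM in those of day 4. In these 3 genes the late-step log2 fold changes were 0.74 ± 0.14, 0.67 ± 0.19 and 0.65 ± 0.15, in that order. With 1 library left out, they ran from 0.56 to 0.89, from 0.56 to 0.78 and from 0.46 to 0.81. The calls of Nr1h2 and Lipe were lost without day 2 replicate 1, day 2 replicate 2 or day 4 replicate 2. That of Insig1 was lost without day 2 replicate 1. Srxn1, sulfiredoxin, which repairs oxidized peroxiredoxins, had 30.0 and 32.7 CPM at day 4, after 23.1 and 20.3 CPM at day 0 and 19.3 and 22.1 CPM at day 2 (log2 fold change 0.69 ± 0.13). Per1, a repressor of the circadian clock and a target of glucocorticoids, had 30.4 and 25.8 CPM at day 0, 29.0 and 31.3 CPM at day 2, and 47.8 and 55.4 CPM at day 4 (log2 fold change 0.86 ± 0.13). Of the lists that hold these genes, cholesterol synthesis and uptake had 7 of 28 tested genes called higher and 1 lower in the late step, the antioxidant list 9 of 45 higher and 4 lower, lipid storage 4 of 38 higher and 6 lower, sterol export 5 of 19 higher and 3 lower, glucocorticoid targets 2 of 12 higher and 4 lower, nuclear receptors 3 of 26 higher and 1 lower, and the clock list 3 of 18 higher and 0 lower by edgeR (5 and 1 at an unadjusted p below 0.05, and 3 and 0 with DESeq2).

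Some of the most abundant members, and of those with the largest late differences, belong to no pathway list. Tmbim6, a calcium channel-like protein of the endoplasmic reticulum that protects from cell death, had 207 and 209 CPM at day 0, 218 and 252 CPM at day 2, and 352 and 395 CPM at day 4. Arhgap45, a GTPase-activating protein, had 101 and 104 CPM in the day 0 libraries, 119 and 121 CPM in those of day 2 and 206 and 224 CPM in those of day 4 (log2 fold change 0.92 ± 0.11). Zfc3h1, part of a complex that leads polyadenylated nuclear RNA to the exosome, had 82.9 and 95.7 CPM in the day 0 libraries, 111 and 100.3 CPM in those of day 2 and 155 and 152 CPM in those of day 4. In each of the 3, both day 4 libraries were above the earlier ones by at least 1.38-fold. Chpf2, an enzyme of chondroitin synthesis, had 46.6 and 38.8 CPM at day 0, 47.6 and 50.8 CPM at day 2, and 84.7 and 109 CPM at day 4, with more spread between the day 4 replicates than on earlier days. Slc17a9, which loads ATP into vesicles, went from a mean of 9.57 ± 0.274 CPM at day 2 to 17.7 ± 3.20 CPM at day 4 (SD, n = 2), Rnasek, a small membrane ribonuclease, from 12.9 ± 0.0934 to 23.7 ± 3.44 CPM, and Jmjd8, a protein with a JmjC domain, from 8.11 ± 0.983 to 15.2 ± 0.113 CPM. Of the noncoding members, Mir22hg, the host transcript of miR-22, went from 1.52 ± 0.0646 to 4.19 ± 0.00466 CPM, D430020J02Rik from 2.91 ± 0.0223 to 6.35 ± 0.882 CPM and 5033406O09Rik from 1.95 ± 0.0491 to 4.77 ± 0.862 CPM. Rnasek reached the highest level of these 6, and Mir22hg the lowest at day 4.

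Small RNAs made up 11 of the 100 members. Apart from Snord83b, Snord32a, Mir671 and the host gene Chpf2, the small RNAs and their host genes are named here after their values were seen. The libraries selected poly(A) RNA, and counts on so short a gene inside another gene cannot be told apart from reads of the host transcript or its unspliced precursor, so the level of the mature small RNA was not measured. The C/D box snoRNAs, which guide the methylation of other RNAs, are shown with the C box core (TGATG) and the D box (CTGA) in capitals, to show which genes the counts refer to (GENCODE M21, GRCm38, all on the minus strand). They lie at chr15:80078498-80078591, chr7:45127382-45127464, chr7:45126346-45126435 and chr7:99479563-99479707.
Snord83b: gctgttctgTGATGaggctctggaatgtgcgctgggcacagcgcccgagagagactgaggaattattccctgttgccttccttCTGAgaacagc
Snord32a: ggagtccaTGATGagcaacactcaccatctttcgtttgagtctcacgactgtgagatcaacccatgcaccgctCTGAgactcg
Snord35a: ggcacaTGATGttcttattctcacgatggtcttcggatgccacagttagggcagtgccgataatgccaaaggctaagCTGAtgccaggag
Snord15b: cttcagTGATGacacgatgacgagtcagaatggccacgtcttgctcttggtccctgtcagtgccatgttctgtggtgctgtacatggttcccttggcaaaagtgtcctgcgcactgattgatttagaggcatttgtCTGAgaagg
The other 2 snoRNAs, Snora3 and Snora34, belong to the H/ACA box class, which guides pseudouridine formation.

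On the scale of the rule, Snord83b had the largest late difference of all members, though others had larger log2 fold changes, such as Ltb4r1 (2.34). Snord83b had 3.78 and 8.22 CPM at day 0, 5.78 and 6.78 CPM at day 2, and 14.2 and 31.7 CPM at day 4. Its replicates differed about as much on day 0 as on day 4, and the lower day 4 library was 1.73-fold above the highest earlier one (late-step log2 fold change 1.97 ± 0.38). Without day 4 replicate 2 it was 1.24, and its call was lost without day 2 replicate 1. It lies in an intron of the ribosomal protein gene Rpl3, which had 292 and 377 CPM at day 0, 268 and 299.6 CPM at day 2, and 172 and 158 CPM at day 4 and was called lower at day 4 than at day 2 (-0.70 ± 0.14), though not without day 2 replicate 2 (-0.62). Snord32a and Snord35a lie 947 bases apart in introns of Rpl13a, and their late-step log2 fold changes were 1.48 ± 0.40 and 1.03 ± 0.29. Without day 4 replicate 2 the value of Snord32a was 0.55, and its call was lost without that library, day 2 replicate 1 or day 2 replicate 2. Rpl13a had 389 and 488 CPM at day 0, 410.0 and 551 CPM at day 2, and 341 and 266 CPM at day 4, and was called lower for that step (-0.58 ± 0.17), though not without day 2 replicate 1 (-0.78), day 2 replicate 2 (-0.36) or day 4 replicate 2 (-0.43). Snora3 and Snord15b, within exons of annotated Rpl27a and Rps3 transcripts, had 0.91 ± 0.25 and 0.90 ± 0.30 where those genes had -0.40 ± 0.11 and -0.39 ± 0.13, both called lower. Snord15b was not called with DESeq2 or with total counts. The calls of the 2 host genes were lost without any 1 of the 4 libraries of days 2 and 4, with values from -0.47 to -0.35 for Rpl27a and from -0.46 to -0.31 for Rps3. The late-step sign of the snoRNAs was fixed by the choice of members, that of the host genes was not, and snoRNAs outside the members were not compared.

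**Figure D4:**
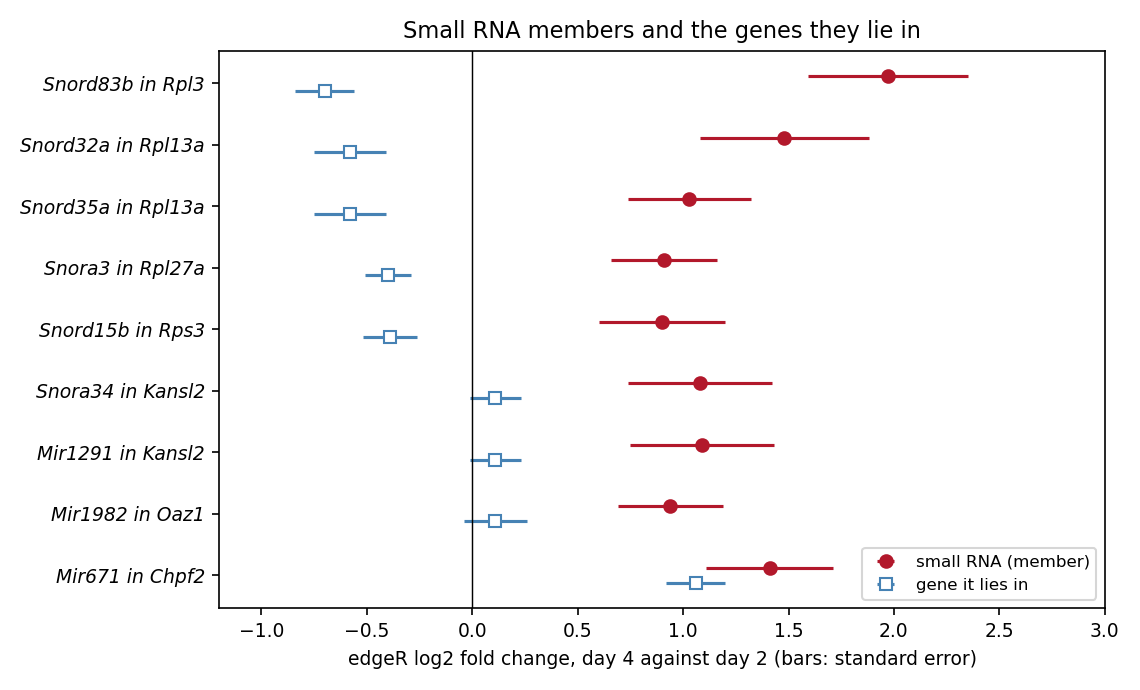
Late-step (day 4 relative to day 2) log2 fold change (edgeR, bars 1 standard error) of small RNA members (filled circles) and of the gene each lies in (open squares). The choice of members placed the small RNAs to the right of 0. The 4 ribosomal protein genes, which were not chosen that way, lie to the left.

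The microRNA hairpins are Mir671, Mir1982, Mir1291, Mir692-2 and Mir692-3. Their mature sequences, with the seed (bases 2 to 8) in capitals, show that no seed is shared except by the 2 copies of miR-692, whose mature sequence is the same (RefSeq, GRCm38.p6).
miR-671-5p: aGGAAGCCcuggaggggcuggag
miR-671-3p: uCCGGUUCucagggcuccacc
miR-1982-5p: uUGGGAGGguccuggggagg
miR-1982-3p: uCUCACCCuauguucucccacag
miR-1291: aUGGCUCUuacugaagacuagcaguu
miR-692: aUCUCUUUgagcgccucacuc
Mir671 lies with all its 98 bases inside an exon of Chpf2, itself a member, and had 3.25 and 1.61 CPM at day 0, 1.68 and 2.27 CPM at day 2, and 4.45 and 5.48 CPM at day 4 (log2 fold change 1.41 ± 0.30, Chpf2 1.06 ± 0.14). These are not separate observations. Mir1982 lies in an exon of an annotated Oaz1 transcript and had 0.94 ± 0.25 where Oaz1 had 0.11 ± 0.15. Mir1291 and Snora34 overlap by 92 bases in an intron of Kansl2 and had nearly the same counts (1.17 and 2.21 CPM in the day 0 libraries, 2.14 and 2.20 CPM in those of day 2 and 2.89 and 5.70 CPM in those of day 4 for Mir1291), with 1.09 ± 0.34 and 1.08 ± 0.34 where Kansl2 had 0.11 ± 0.12.

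Mir692-2 and Mir692-3 had the same count in every library, with 6.15 and 3.77 CPM at day 0, 5.83 and 6.23 CPM at day 2, and 10.9 and 10.7 CPM at day 4, so the counts do not separate the copies. The mature miR-692 sequence, read as DNA, occurs without mismatch at bases 771 to 791 of the 968-base Ftl1 transcript. Of the 90 words of 20 bases in the Mir692-2 hairpin, 56 occur in the Ftl1 transcript, 72 in Ftl2-ps, a ferritin pseudogene, and 90 in 1 transcript of Ftl1-ps1. Mir692-2 overlaps Ftl2-ps by 91 bases and Mir692-3 overlaps Ftl1-ps1 by 109 bases on the same strand. The reads on both hairpins can therefore not be told apart from reads of ferritin light chain sequence, and the levels of the hairpins are uncertain. Gm4070 and Gvin1, which like the others here were chosen after their values were seen, form the other pair with the same count in every library (0.599 and 0.668 CPM in the day 0 libraries, 0.764 and 0.937 CPM in those of day 2 and 2.63 and 1.53 CPM in those of day 4).

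Very low members rest on few counts. Ifitm1, Rtl9, Rdh9 and Ptprh had at most 3 counts in each day 0 library. The pseudocount of 1 CPM in the rule makes a gene that is very low on both days look level from day 0 to day 2. Rtl9 and Rdh9, named after their values were seen, reached 0.538 and 0.877 CPM and 0.397 and 0.964 CPM at day 4. For these 4 genes no fold change against day 0 is given, though 1 of them, Ptprh, was the member called higher in the early step. In all, 12 members had a mean below 1 CPM at day 0.

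The 55 members not named by the rule for named genes hold 41 coding genes, 6 other noncoding RNAs, 4 microRNA hairpins and 4 snoRNAs. Their mean levels at day 4 ran from 0.681 to 109 CPM, with a median of 10.8 CPM, after medians of 5.84 CPM at day 0 and 6.03 CPM at day 2. The ratio of mean CPM at day 4 over day 2 ran from 1.44 to 11.8 with a median of 1.71.

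At the end of the list, the members just inside the limit were Atp6v0a2, E4f1 and Ptprh with a day 4 minus day 2 of 0.52 and Usp35 and Nrgn with 0.51. Usp35, a ubiquitin-removing enzyme, had 3.78 and 4.30 CPM in the day 0 libraries, 3.80 and 3.94 CPM in those of day 2 and 5.52 and 6.38 CPM in those of day 4, and Nrgn, the calmodulin-binding protein neurogranin, had means of 12.7 ± 0.897 CPM at day 2 and 18.5 ± 0.670 CPM at day 4 (SD, n = 2). Ptprh, a receptor tyrosine phosphatase, had 1 and 0 counts at day 0, 6 and 7 counts at day 2 (0.153 CPM in both), and 0.595 and 0.701 CPM at day 4. Just outside were Snora74a, Dctn3 and Dynlt1b with 0.51 and Gm9958 and Zfp653 with 0.50. The values pass from inside to outside without a gap.

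Transcripts other than the one that stands for a gene could be read for 23 members. Of 38 such tested transcripts, 5 had the same counts as the main one and 33 had other counts, in 20 genes. All 33 were called higher in the late step in the same edgeR fit and 0 lower. They mostly share exons and reads with the main transcript and are not separate measurements.

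Many members overlap other genes. Of 96 members with a GENCODE model, 42 share exon bases with another gene, 19 on the same strand and 26 on the other. How the counting treated strand is not stated. No read was set aside as ambiguous in any of the 6 libraries, and another Stat3 transcript had the same counts as the main one. Reads on bases shared on the same strand were thus counted for more than 1 transcript, so levels of these members are uncertain. Among members named above, Jmjd8 shares 530 bases with Stub1 on the other strand, Lipe 809 bases with 4732471J01Rik, Ccnd3 353 bases with Bysl, Rnasek 595 bases with Gm21988 on its own strand, Vps51 532 bases with Tm7sf2 on its own strand, Wsb2 499 bases with Rfc5, Chpf2 1416 bases with Smarcd3, and Stat3 72 bases with Stat5a. These partners, like all others, are named after their values were seen. Stub1 was called higher in the late step (0.43 ± 0.12), but not with total counts (0.34) or without day 2 replicate 1 (0.35), day 2 replicate 2 (0.51) or day 4 replicate 2 (0.34), and so was Tm7sf2 (0.65 ± 0.18), but not without day 2 replicate 1 (0.66), day 2 replicate 2 (0.63) or day 4 replicate 2 (0.57). Rfc5 was called lower (-0.96 ± 0.10), and Bysl, 4732471J01Rik, Smarcd3 and Stat5a were not called (-0.13 ± 0.15, -0.20 ± 0.24, 0.21 ± 0.15 and -0.05 ± 0.12). In the early step Tm7sf2 had 1.38 ± 0.20 and Rfc5 -0.17 ± 0.10.

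In position, 11 pairs of members lie within 100 kb of each other on a chromosome, 22 members in all. Among them are Ltb4r1 with Ltb4r2, Hoxc6 with Hoxc9, H2bc4 with H1f2, Mir671 with Chpf2, Mir1291 with Snora34 and Snord32a with Snord35a. Chromosome 7 holds 19 of the 99 placed members (19.2%), beside 7.70% of tested genes, chromosome 11 holds 12 (12.1%, beside 8.87%) and chromosome 15 holds 8 (8.08%, beside 3.97%). Other chromosomes hold a smaller share of members than of tested genes, such as chromosomes 9 (1.01% beside 5.50%), 8 (2.02% beside 5.49%) and 2 (5.05% beside 7.85%). These shares include neighbours that overlap. Member transcripts had a median length of 2577 bases and 7 exons, beside 2777 bases and 9 exons over all tested genes, and 15.6% beside 5.14% had a single exon. Among coding members alone the medians were 2799 bases and 10 exons, beside 2880 bases and 9 exons, so the single-exon share came mainly from the small RNAs.

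Promoters of 65 members were in the reference table, which holds 250 bases before to 50 bases after a start (RefSeq, GRCm38.p6). The other 35 had no window. Short motifs were searched on both strands, and shares are given for members, for 9680 tested genes and for all 27025 genes with a window. The AP-1 letters TGANTCA occurred in 12 members (18.5%), beside 6.05% of tested genes and 8.97% of all genes. The CACCC letters CCACACCC, in 8 members, gave 12.3%, beside 4.64% and 4.09%. The E-box CAGNTG gave 58.5%, beside 47.5% and 54.6%, and the GATA letters AGATAA 4.62% (3 members), beside 8.34% and 12.7%. The letters GTAAACA of forkhead factors gave 7.69%, beside 3.03% and 4.05%. The remaining motifs lay closer to tested genes, with 66.2% beside 68.5% for the GC box GGGCGG, 44.6% beside 43.7% for CCAAT, 35.4% beside 35.9% for the TGACG core of the cyclic AMP response element (CRE), 12.3% beside 11.7% for the MYC E-box CACGTG, 9.23% beside 8.16% for the STAT letters TTCNNNGAA and 7.69% beside 8.48% for the TATA box TATAAA. Over all 32851 windows, in which a gene with several starts counts more than once, these 6 motifs had shares of 35.7%, 37.4%, 20.8%, 7.15%, 8.30% and 13.6%, in that order. The ETS core CCGGAAG gave 16.9%, beside 21.0% of tested genes and 9.93% of all genes. No motif of the list holds another within its letters, though matches can share bases. No test was made, a match is a description of letters only, and a window without a match says nothing about a factor.

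**Figure D5:**
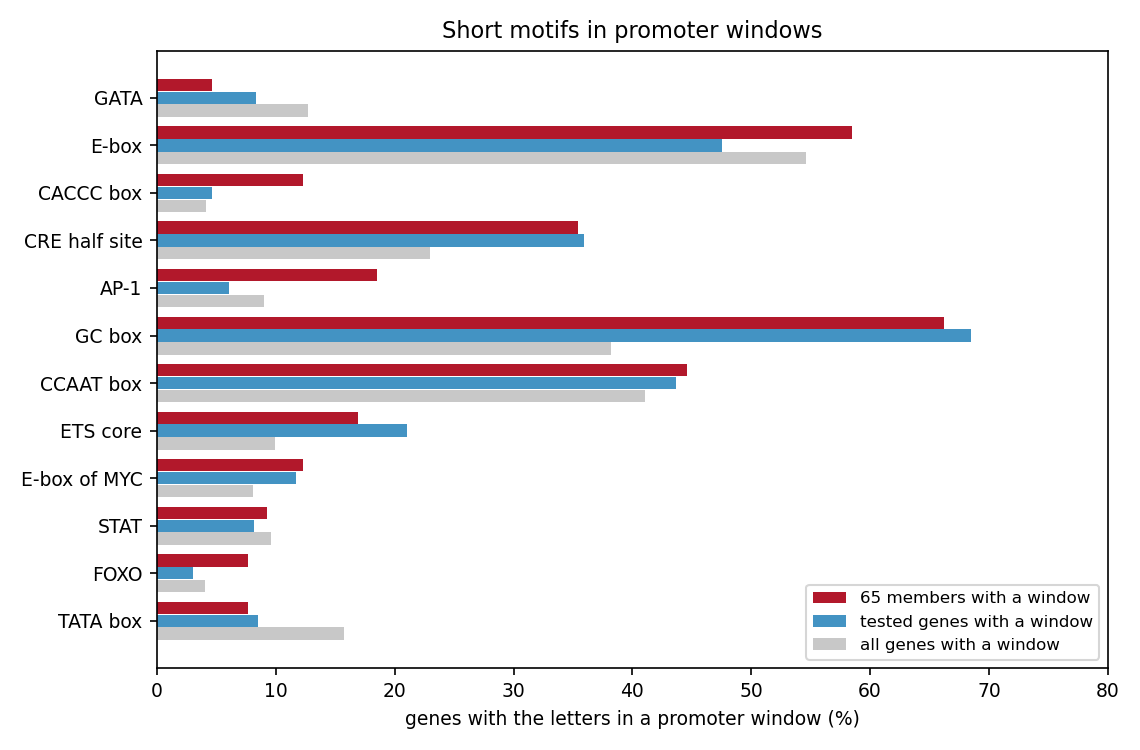
Percent of genes with each motif in the promoter window, for the 65 members with a window, for tested genes and for all genes. In percentage points, members differ most from tested genes in the AP-1 (18.5% beside 6.05%), E-box (58.5% beside 47.5%) and CACCC letters (12.3% beside 4.64%).

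The 250 bases before the start are shown for Itga2b, Tfrc and Ftl1, as the abundant members with the largest late differences in surface and iron genes, and for Srxn1, as the member with 2 AP-1 matches. Capitals mark matches. Distances give the first base of a match before the start in the table, on either strand. The windows lie at chr11:102469884-102470133 (minus strand; E-box 248 and 220 bases before it), chr16:32608646-32608895 (plus strand; CCAAT 124 and E-box 102 bases before it), chr7:45459887-45460136 (minus strand; GC box 183 and CCAAT 78 and 34 bases before it) and chr2:152105274-152105523 (plus strand; GC box 129, AP-1 102 and 45, and CRE 85 bases before it).
Itga2b: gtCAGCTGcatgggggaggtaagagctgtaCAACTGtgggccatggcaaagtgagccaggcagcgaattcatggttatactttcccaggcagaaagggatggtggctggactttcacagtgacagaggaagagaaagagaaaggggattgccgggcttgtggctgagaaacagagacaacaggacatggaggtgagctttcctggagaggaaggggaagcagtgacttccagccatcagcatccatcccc
Tfrc: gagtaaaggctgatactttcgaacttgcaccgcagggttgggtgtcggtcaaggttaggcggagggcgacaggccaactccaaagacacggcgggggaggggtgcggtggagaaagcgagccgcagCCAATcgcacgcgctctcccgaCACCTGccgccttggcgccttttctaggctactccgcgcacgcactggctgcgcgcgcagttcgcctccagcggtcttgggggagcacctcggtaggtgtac
Ftl1: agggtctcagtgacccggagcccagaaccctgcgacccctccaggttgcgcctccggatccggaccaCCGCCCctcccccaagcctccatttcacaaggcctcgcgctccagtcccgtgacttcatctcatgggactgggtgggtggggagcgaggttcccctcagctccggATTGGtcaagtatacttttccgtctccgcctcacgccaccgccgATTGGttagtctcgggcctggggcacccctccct
Srxn1: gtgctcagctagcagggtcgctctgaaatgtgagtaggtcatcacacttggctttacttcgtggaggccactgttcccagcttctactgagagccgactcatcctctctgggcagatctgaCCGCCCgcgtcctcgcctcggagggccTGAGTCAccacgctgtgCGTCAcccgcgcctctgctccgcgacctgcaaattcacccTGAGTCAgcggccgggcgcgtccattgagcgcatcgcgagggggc
The 4 windows have no motif in common.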

How the data were processed

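Poly(A) RNA of MEL cells was sequenced in 2 cultures on each of 3 days (6 libraries). Per the study's methods and labels, the authors trimmed reads with cutadapt, aligned them to mm10 with TopHat 2.1.0 and counted with HTSeq, and the deposited values are raw counts per RefSeq transcript. The alignment was set for stranded libraries, while the annotation release and how the counting treated strand are not stated. The entries for ambiguous and not uniquely aligned reads were 0 in all 6 libraries, and overlapping transcripts each had counts. Reads on bases shared on the same strand were thus counted for more than 1 transcript. Reads on no feature and the other bookkeeping entries were left out, which leaves 35294930 to 53899476 counts per library. As a share of themselves plus the transcript counts, reads on no feature were 50.5% and 54.1% at day 0. They were 53.8% and 52.7% at day 2 and 58.1% and 58.4% at day 4. A read on shared bases enters the transcript counts more than once, so these percentages are not shares of all reads. A count of 0 allows up to 3 counts, and such floors cover counting error only.

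Members were found from CPM as given at the start of the results, for 24164 genes. The members and the gene lists were chosen with earlier results of these data known. edgeR 4.0.16 in R 4.3.3 fitted 18351 transcripts (TMM factors, filterByExpr by day, 1 quasi-likelihood fit with a mean per day), with Benjamini-Hochberg adjustment over all of them and a call at an adjusted p below 0.05. A standard error is the size of the log2 fold change over the square root of its F. The fits were tested on simulated data. Figures, sequences and summaries were made in Python 3.11.15, with symbols and promoters from RefSeq tables (GRCm38.p6) and transcripts from GENCODE M21.

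Named are the 20 members with the largest day 4 minus day 2, the 10 with the highest mean CPM at day 4, every member in one of the 63 pathway lists, the 5 just inside and the 5 genes just outside the limit, and, for lists with at least 2 members, the called genes outside the members with the largest rise and fall for day 4 against day 2. This gave 45 members and 59 genes, of which 2 members are left out of the text. Genes outside this rule are marked in the text, apart from marker genes of cell types. The 1.3-fold limit on closeness of replicates and the hairpin words of 20 bases were set after values were seen.

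Alternatives were DESeq2 1.42.0, relative log expression factors, total counts, no filter beyond 1 count, 1 transcript per gene, fits of 2 days, a replicate block, a limit on fold change, leaving out each library, and, for the rule, other scalings, pseudocounts, filters and limits.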

Additional observations from a re-analysis of the deposited data

How the results depend on the processing

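Of the 100 members, the rule chose 66 with DESeq2 size factors, 37 with a pseudocount of 0.1 CPM, 39 with a limit of 0.1 and 58 with a limit of 0.5 on day 2 minus day 0, and 53 to 54 from the libraries of 1 replicate number. With TMM-scaled sizes, totals without globin, a pseudocount of 5 CPM, a filter at 1 CPM, no requirement on single libraries or the transcript highest at day 4, it chose between 67 and 100. A stricter or wider limit changes by construction which genes can be chosen; for the other settings the cause was not tested. The median day 4 minus day 2 of 0.66 was 0.72 with TMM and with DESeq2 size factors, 0.77 with a pseudocount of 0.1 CPM, and 0.66 to 0.67 in 1 replicate number.

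For day 2 against day 0, where 6 members were called, relative log expression factors called 10, total counts 2 (2 higher and 0 lower, where the fit given had 1 and 5) and a required log2 fold change of 1 called 1. Leaving out 1 library gave 1 to 18. For day 4 against day 2, the required fold change left 31 of 100, and leaving out 1 library 36 to 100. For day 4 against day 0, it left 31 of 96, and leaving out 1 library 72 to 97. Where 1 library was left alone in a day, it was assumed to vary like the others. The other settings of each comparison stayed within 1.5 times the count given in the results. With the replicate block, which pairs libraries by number (replicate differences correlated by 0.032, 0.045 and 0.079 between days), 8, 100 and 98 members were called. The share of all calls that were higher was 49.7% (day 2 against day 0) and 46.6% (day 4 against day 2), and 63.6% and 32.8% with total counts. The fit of only day 0 and day 2 held 96 members.

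For the 59 genes of the rule for naming, 530 log2 fold changes for day 4 against day 2 were computed under other settings. Of these 464 kept their direction and call, 66 kept their direction without a call and 0 were reversed. The members and the genes just outside were chosen with both day 4 libraries above the others, so a reversal was hardly possible for them. The setting with the most lost calls (32) was that without day 2 replicate 1. The largest move was 0.93.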
